A study of Mus musculus with 5 samples.

Results

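The Gucy2c/Nap1l5-rich T cells of mouse dorsal skin were 2695 of 34041 cells in 4 unsorted single-cell libraries. In those libraries 4819 cells had at least 2 UMIs of the Cd3 genes and keratin UMIs under the limit given below, and are called Cd3-positive. The Gucy2c/Nap1l5-rich cells were selected on 13 genes. A cell was kept for the group when it had at least 2 UMIs (unique molecular identifiers, each counting 1 captured transcript) of Cd3e and Cd3g together, at least 2 UMIs of Gucy2c, Slc32a1, Nap1l5 and Mest together, 0 UMIs of Cd6, Cd28, Cd8a, Cd8b1 and Cd4, and fewer than 20 UMIs of Krt14 and Krt5 per 10000. The first pair encodes chains of the CD3 complex that every T cell needs for antigen receptor signalling, the 5 excluded genes mark conventional αβ T cells, and the keratins mark basal keratinocytes. Levels of these genes describe the choice of cells and were not tested between cell classes. The working name was epidermal T cells, and the whole-skin suspensions hold no measurement of where a cell lay.

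The study compared whole dorsal skin of female mice at postnatal day 46. The mutant mice were Lepr-Cre;mTmG;Smo+/- and the control mice Lepr-Cre;mTmG, with 2 libraries each; the protocols and design text write the control with Smo after the reporter, and the labels do not say how the allele was changed. Both genotypes thus carried Lepr-Cre, a Cre recombinase placed at the gene of the leptin receptor, and mTmG, a reporter at Rosa26 whose membrane label is tomato until Cre acts and GFP afterwards. GFP-positive cells sorted from Lepr-Cre;mTmG females at postnatal day 50 gave 1 more library of 432 kept cells, which entered no test. Both libraries of each genotype are described in the protocols as technical replicates. A p-value here therefore measures the spread between preparations only, and genotype cannot be told apart from the mice or skin used. Smo encodes the signal transducer of the Hedgehog pathway. In the Gucy2c/Nap1l5-rich cells it gave 90 UMIs in all, at 9.38 and 6.34 CPM in the Smo+/- libraries and 3.63 and 5.56 CPM in the control libraries (CPM, UMIs of a gene scaled to all UMIs of the same cells), and it was not called between genotypes (edgeR adjusted p = 0.353). Non-T cells are all kept cells that were not Cd3-positive, among them cells with Cd3 UMIs that were above the keratin limit. In non-T cells Smo was at 18.99 and 18.1 CPM in the Smo+/- libraries and 13.5 and 13.7 CPM in the control libraries. The counted transcript ends need not cover the altered stretch, which the labels do not give, so these counts do not check the genotype.

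Dendritic epidermal T cells (DETCs) are γδ T cells of mouse epidermis that carry a nearly invariant receptor, sit among keratinocytes and survive there for the life of the animal. They respond to stressed keratinocytes through receptors shared with natural killer cells, such as NKG2D, and release growth factors and chemokines. Gucy2c encodes a receptor guanylate cyclase best known from the intestine, and Slc32a1 the transporter that loads GABA and glycine into synaptic vesicles. Nap1l5 and Mest are imprinted genes, expressed from the paternal allele.

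Nap1l5 lies on the minus strand of chromosome 6 at 58905233 to 58907076 (GRCm38) and overlaps Herc3 on the other strand. Mest lies on the plus strand of chromosome 6 at 30723547 to 30748465 and overlaps Copg2 on the other strand. Gucy2c is on the minus strand of chromosome 6 at 136697284 to 136781765, and Slc32a1 on the plus strand of chromosome 2 at 158610767 to 158615748. The 300 bases around the RefSeq starts of the selecting genes present in the promoter table are shown, with each CG dinucleotide in capitals, because imprinting marks sit on CG-rich DNA. They run 5′ to 3′ on the gene's own strand, and the start of Mest is 1 of the 3 that the table lists.
Nap1l5, GRCm38.p6 chr6:58907077-58907376, minus strand: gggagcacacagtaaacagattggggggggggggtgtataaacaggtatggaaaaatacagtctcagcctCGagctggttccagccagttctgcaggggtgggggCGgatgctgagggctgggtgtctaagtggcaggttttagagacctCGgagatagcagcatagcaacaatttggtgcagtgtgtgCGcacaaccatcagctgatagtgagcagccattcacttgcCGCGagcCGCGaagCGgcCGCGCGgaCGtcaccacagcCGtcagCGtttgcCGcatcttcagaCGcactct
Mest, GRCm38.p6 chr6:30737800-30738099, plus strand: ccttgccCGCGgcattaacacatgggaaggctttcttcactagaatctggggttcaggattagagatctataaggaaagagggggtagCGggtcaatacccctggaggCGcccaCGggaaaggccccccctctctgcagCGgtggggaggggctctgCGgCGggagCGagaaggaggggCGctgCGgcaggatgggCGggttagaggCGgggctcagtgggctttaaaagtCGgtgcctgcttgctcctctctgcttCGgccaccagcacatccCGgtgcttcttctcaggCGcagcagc
Slc32a1, GRCm38.p6 chr2:158610508-158610807, plus strand: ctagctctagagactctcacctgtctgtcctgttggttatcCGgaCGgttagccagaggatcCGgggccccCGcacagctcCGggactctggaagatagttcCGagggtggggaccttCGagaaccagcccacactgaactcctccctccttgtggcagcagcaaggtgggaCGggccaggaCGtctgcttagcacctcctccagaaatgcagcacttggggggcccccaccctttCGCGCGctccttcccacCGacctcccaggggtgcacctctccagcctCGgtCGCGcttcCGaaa
Each of these sequences holds 17 CG dinucleotides, a number that 31.4% of the 32851 promoters of this length in the table reach, where the median is 7.0. Of the other Mest starts, the one at 30733256 to 30733555 holds 8 CG dinucleotides, which 48.7% of promoters reach, and the other 17. The letters TGTGGT, the core recognised by Runx factors, were searched on both strands. They occur 1 time in the Nap1l5 sequence, 0 times in the Mest and Slc32a1 sequences, and at least 1 time in 16.8% of all promoters.

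The cells read the 4 selecting genes in different combinations. All 4 were detected in 459 cells (17.03%), 3 in 922 (34.2%), 2 in 930 (34.5%) and only 1 in 384 (14.2%). Mest was the most abundant by UMIs, at 1226 and 1159 CPM in the Smo+/- libraries and 1164 and 1264 CPM in the control libraries. Nap1l5 stood at 465 and 452 CPM in the Smo+/- libraries and 448 and 521 CPM in the control libraries. The Smo+/- and control ranges of both genes overlap. Gucy2c gave 213 and 211 CPM in the Smo+/- libraries, against 338 and 336 CPM in the control libraries, and Slc32a1 369 and 356 CPM against 518 and 477 CPM. For both of these genes each Smo+/- library was below each control library; as genes of the selection they were not tested.

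Detection of Gucy2c in the group was set beside that in keratinocytes. Gucy2c UMIs were found in 56.3% and 51.4% of the cells in the Smo+/- libraries and 68.1% and 68.9% in the control libraries, at median depths of 4475 to 5231 UMIs per cell. In keratinocytes, taken as cells with at least 100 UMIs of Krt14 and Krt5 per 10000 and deeper at medians of 14832 to 16555 UMIs, the shares were 1.29% and 0.988% in the Smo+/- libraries and 1.30% and 1.57% in the control libraries. Herc3, which overlaps Nap1l5, gave 35.8 to 48.7 CPM in the Gucy2c/Nap1l5-rich cells. Cd7, a surface protein of T and natural killer cells that is a marker of the group and no part of the selection, was at 621 and 679 CPM in the Smo+/- libraries and 759 and 759 CPM in the control libraries. In other T cells Cd7 was at 250 and 259 CPM in the Smo+/- libraries and 317 and 370 CPM in the control libraries.

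Cells on both sides of the limits of the selection were read by their other genes, as a description. The 198 members with exactly 2 UMIs of the 4 genes had 762 CPM of Cd7, 862 CPM of Fcer1g and 161 CPM of Cd244. The 263 cells that met every other criterion and had 1 UMI had 760, 792 and 125 CPM of the same genes, and the 407 cells with 0 UMIs had 486, 581 and 72.3 CPM. Among cells excluded only for the 5 αβ genes, the 148 with a single such UMI had 696 CPM of Cd7 and 810 CPM of Fcer1g. The 44 cells excluded only for keratins, at 20 to 40 UMIs per 10000, had 140 CPM of Cd7 and 225 CPM of Fcer1g. These 44 cells were deeper, at library medians of 15124.5 to 33534 UMIs against 4475 to 5231 in members. Equal UMIs of a gene per cell give a lower CPM in deeper cells, so their CPM do not show fewer UMIs per cell. With the 4 libraries pooled, Cd7 was nearly equal with 2 and with 1 UMI of the 4 genes, and Cd244 was lower with 1. By library, Cd244 was higher with 1 UMI in Smo+/- replicate 2, at 143 CPM against 113 CPM with 2. In each other library Cd244 was lower with 1.

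The share of these cells was lower in Smo+/- skin. They made up 5.51% and 5.87% of kept cells in the Smo+/- libraries, from 471 of 8545 and 518 of 8818 cells, against 9.95% and 10.5% in the control libraries, from 824 of 8278 and 882 of 8400 cells. The means were 5.69% ± 0.256 and 10.2% ± 0.386 (SD, n = 2 libraries each), a difference of -4.53 percentage points. Of the Cd3-positive cells they were 44.6% and 46.2% in the Smo+/- libraries, against 63.3% and 65.7% in the control libraries, a difference of -19.1 points. The genotypes did not overlap on either denominator. For each, p = 0.333 in an exact two-sided permutation test, which is as small as 2 against 2 libraries allow. Other T cells, defined by at least 2 UMIs of the 5 αβ genes and 0 of the 4 selecting genes, numbered 357 and 358 in the Smo+/- libraries and 181 and 174 in the control libraries. A share depends on every other cell type in the suspension, and fewer of these cells cannot be told apart from more of the others.

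**Figure D1:**
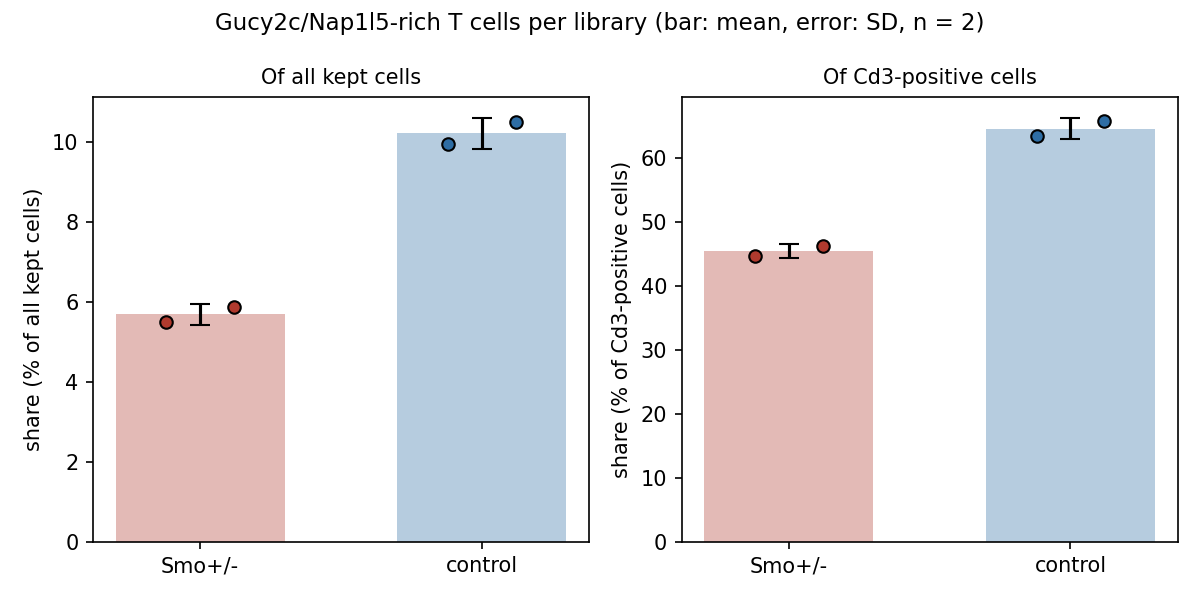
Share of Gucy2c/Nap1l5-rich T cells (y axis, percent) in Smo+/- and control libraries, of all kept cells (left panel) and of Cd3-positive cells (right panel); points are libraries, bars are means and error bars are SD over 2 libraries. Both Smo+/- libraries lie below both control libraries, at 5.51% and 5.87% against 9.95% and 10.5% of kept cells.

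Against other T cells, the Gucy2c/Nap1l5-rich cells had higher Fcer1g, Cd244, Areg, Hk2 and imprinted genes, and lower Ccl5, Icos and homing receptor genes. UMIs were summed per library and class and tested with edgeR's quasi-likelihood test, with the library as a block. Calls needed a log2 fold change of 1 or more in either direction beside an adjusted p (Benjamini-Hochberg) under 0.05. Of 10052 genes tested, 1348 were called higher (13.4%) and 1094 lower (10.9%). These shares are the background for each list below. The other T cells were chosen for Cd6, Cd28, Cd8 or Cd4 transcripts, so genes that accompany those were bound to be lower in the group.

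Of the 22 genes in the DETC list, 17 were tested, and 8 were called higher and 5 lower, with a median log2 fold change of 0.64 against 0.02 over all genes. The receptor genes Trdc, Trdv4, Tcrg-V5 and Tcrg-C1 of the list, which would define a γδ receptor, were not analysed here in the unsorted libraries, and Egr3, with 4 UMIs in the group, did not pass the filter on low counts. Fcer1g, a signalling adaptor of Fc and natural killer receptors, stood at 851 and 865 CPM in the Gucy2c/Nap1l5-rich cells of the Smo+/- libraries and 871 and 871 CPM in those of the control libraries. In other T cells it was at 63.4 and 62.2 CPM in the Smo+/- libraries and 73.6 and 70.0 CPM in the control libraries, and its log2 fold change was 3.71 ± 0.07 (SE). With each cell thinned to 2000 UMIs, Fcer1g was detected in 75.6% to 82.2% of the Gucy2c/Nap1l5-rich cells, 4.47% to 7.56% of other T cells and 0.794% to 1.00% of keratinocytes. Cd244, the receptor 2B4 of natural killer cells, gave 168 and 185 CPM in the group's cells of the Smo+/- libraries and 165 and 175 CPM in those of the control libraries. Its levels in other T cells were 4.78 to 9.14 CPM over the 4 libraries, and its log2 fold change was 4.65 ± 0.13. For both genes, the summed level of the group in each library was above every summed level in other T cells. This holds for the sums, not for single cells.

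Il2rb, the receptor chain shared by interleukins 2 and 15, was at 831 to 945 CPM in the group and 171 to 225 CPM in other T cells (log2 fold change 2.13 ± 0.07). Xcl1, a chemokine that attracts cross-presenting dendritic cells, was at 809 to 1085 CPM in the group and 119 to 177 CPM in other T cells (2.69 ± 0.17). Nkg7, a granule protein, differed by 1.67 ± 0.13, the inhibitory-type receptor gene Klra5 by 2.05 ± 0.45, the aryl hydrocarbon receptor gene Ahr by 1.53 ± 0.18 and the T cell surface protein gene Thy1 by 1.18 ± 0.08. Adjusted p-values of the 13 called DETC genes ran between 3.63e-08 for Fcer1g and 0.00566 for Klra5. Against all other Cd3-positive cells, which include those just outside the selection, 5 of the list were called higher in place of 8, without Xcl1, Ahr and Thy1.

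The 5 lower genes of the list include surface molecules that bind keratinocyte products. Ccr10, a receptor for a chemokine made by keratinocytes, was at 0 to 0.617 CPM in the group, 5 UMIs in all, against 22.3 to 53.1 CPM in other T cells (log2 fold change -6.62 ± 0.39). Jaml, which binds a ligand on keratinocytes, was at 9.52 to 21.1 CPM in the group and 120 to 140 CPM in other T cells (-3.16 ± 0.21). Tbx21, the transcription factor T-bet, differed by -4.31 ± 0.29, the activation and retention marker Cd69 by -1.94 ± 0.10 and the semaphorin gene Sema4d by -1.50 ± 0.16. The other 4 genes were not called. Klrk1, which encodes NKG2D, was at 215 to 307 CPM in the group and 204 to 310 CPM in other T cells (0.05 ± 0.18), and the ranges overlap. Klrd1 differed by 0.11 ± 0.20 and Klre1 by -0.45 ± 0.28. Itgae, the integrin chain that binds E-cadherin, had an adjusted p of 0.000321 in the edgeR fit but a log2 fold change of 0.64 ± 0.08, under the limit of 1. With 8 genes higher and 5 lower and no receptor gene to set beside them, the list goes in part with the DETC name and in part against it, and the cells are called here by their leading genes.

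**Figure D2:**
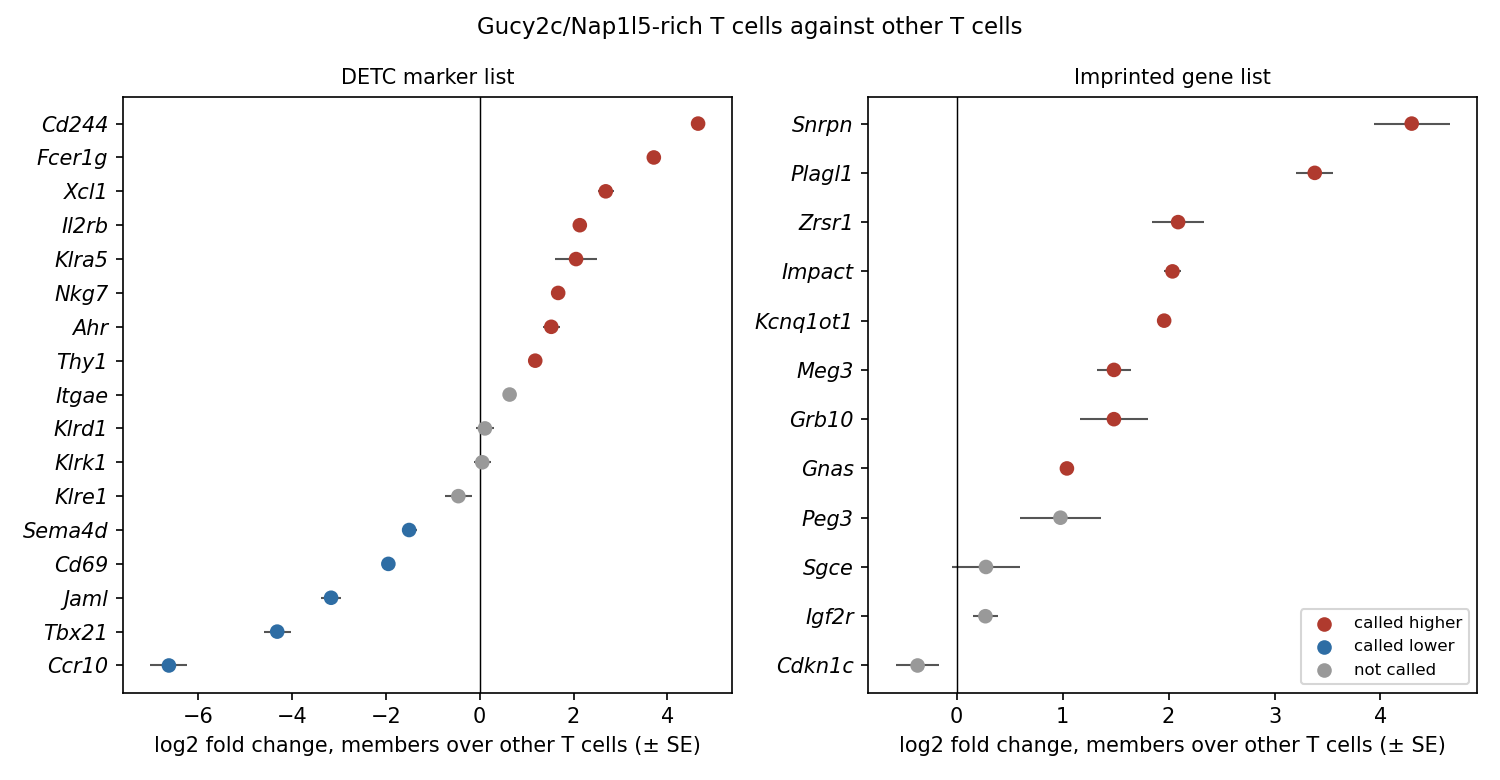
Log2 fold changes (x axis, with SE) of Gucy2c/Nap1l5-rich T cells over other T cells for the tested genes of the DETC list (left) and of the imprinted gene list (right); red points were called higher, blue points lower and grey points neither. The DETC list spreads between -6.62 for Ccr10 and 4.65 for Cd244, while 8 of 12 imprinted genes are called higher and none lower.

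Beyond the lists, the 15 genes with the highest fold changes among those at 50 CPM or more came from unrelated families. Ordered by fold change they were Wscd1, Prox2, Zmat4, Gm2237, Kcnab3, Adora3, Gm15880, Batf3, Kcnma1, Akap6, Hpse, Cntn1, Ctnnd2, Avil and Cntrob, between 8.23 ± 0.34 for Wscd1 and 6.05 ± 0.12 for Cntrob on the log2 scale. Wscd1 was at 98.8 and 114 CPM in the group's cells of the Smo+/- libraries and 103 and 100.2 CPM in those of the control libraries, against 2 UMIs in other T cells of all 4 libraries. Adora3, an adenosine receptor, was at 110 to 137 CPM in the group and at most 1.80 CPM in other T cells. Batf3, a transcription factor of the AP-1 family, was at 170 to 208 CPM in the group and 0.956 to 3.05 CPM in other T cells. Kcnma1 and Kcnab3 encode a channel subunit and an auxiliary subunit of potassium channels, and Cntn1 and Ctnnd2 adhesion proteins best known from neurons. Cntrob, a centriole protein, reached 409 to 585 CPM in the group and 6.09 to 10.9 CPM in other T cells.

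The 10 genes with the lowest fold changes were Sh2d1a, Gm26740, Ccl5, Cd226, Cd5, Ms4a6b, Ifng, Ctla4, Gimap3 and Cxcr3. Sh2d1a, which encodes the adaptor SAP, had 0 UMIs in the group and 384 in other T cells, which makes it at least 302-fold lower when 3 UMIs over the group are taken as the floor. Ccl5, a chemokine of memory and cytotoxic T cells, was at 2.68 to 6.34 CPM in the group, against 1619 to 2000 CPM in other T cells. Cd5, a receptor that dampens αβ receptor signals, was at 0.227 to 0.412 CPM against 113 to 170 CPM. Ifng, the gene for interferon γ, had 4 UMIs in the group and 501 in other T cells.

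Natural killer type receptors and adaptors divided. Of 15 tested, 6 were called higher, among them Klrb1b (4.83 ± 0.44), Klrc1 (1.65 ± 0.16) and Cd96 (1.41 ± 0.13), and 3 lower, namely Cd226 (-8.57 ± 0.31), Tyrobp (-1.89 ± 0.39) and Hcst (-1.23 ± 0.08). Tyrobp and Hcst encode adaptors of activating receptors. In the cytotoxic granule list, Prf1 (perforin) and Nkg7 were higher while Gzma, Gzmb and Gzmc were lower, of 9 tested. Gzma had 0 UMIs in the group, at least 159-fold lower by the same floor, and Gzmb averaged 101.3 CPM in the group and 398 CPM in other T cells on the scale of the edgeR fit.

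Growth factors and cytokines gave 3 higher and 4 lower of 15 tested. Areg, the gene for the epidermal growth factor family member amphiregulin, was the most abundant of them at 1812 and 1826 CPM in the group's cells of the Smo+/- libraries and 2008 and 1845 CPM in those of the control libraries. In other T cells Areg was at 63.8 and 32.2 CPM in the Smo+/- libraries and 23.0 and 38.6 CPM in the control libraries, and its log2 fold change was 5.61 ± 0.23 (edgeR adjusted p = 5.68e-07). Areg UMIs were also found in 41.2% to 47.6% of keratinocytes, which were deeper. Col1a1, a fibroblast gene, was found in 31.0% to 48.9% of the same keratinocytes. With each cell thinned to 2000 UMIs, Areg was detected in 53.2% to 59.5% of the group's cells and 11.6% to 12.9% of keratinocytes. Whether keratinocytes express Areg was not tested. Il13, a type 2 cytokine, was also higher, with a mean of 23.9 CPM in the group, while Ccl5, Ifng, Ccl4 and Il2 were lower. Igf1, Fgf7 and Tnf were not called, at 0.11 ± 0.54, 0.65 ± 0.33 and 0.18 ± 0.15.

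Homing receptors were mostly lower. Of 19 tested, 12 were called lower, among them Cxcr3 (-7.34 ± 0.33), S1pr1 (-5.97 ± 0.23), whose product guides cells out of tissue, Ccr8 (-5.96 ± 0.41) and Cxcr4 (-4.90 ± 0.12). The 2 higher were the integrin genes Itgav (2.01 ± 0.08), at 361 to 398 CPM in the group and 86.3 to 105 CPM in other T cells, and Itgb7 (1.42 ± 0.08), whose product pairs with that of Itgae. Among 15 cytokine receptors tested, Il2rb and Il1r2 were higher and 7 lower, including Il18r1 (-6.16 ± 0.32) and Il7r (-3.96 ± 0.20). Of 7 inhibitory receptors tested, Havcr2, which encodes TIM-3, was higher (3.05 ± 0.11), at 358 to 374 CPM in the group and 34.2 to 54.5 CPM in other T cells, and Ctla4, Cd200r1, Pdcd1 and Cd200r4 were lower. Inside the CD3 complex, the signalling chain gene Cd247 was higher (2.14 ± 0.10) and Cd3d was not called (-0.06 ± 0.06).

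Among 24 lymphocyte transcription factors, 5 were called higher and 6 lower. The higher ones were Tox (3.14 ± 0.15), Nr4a3 (2.21 ± 0.17), Runx3 (2.14 ± 0.07), Ahr and Nr4a2 (1.45 ± 0.08). Runx3, needed for many tissue-resident and cytotoxic lymphocytes, was at 437 to 489 CPM in the group and 103 to 111 CPM in other T cells. Rora (-3.26 ± 0.10), Lef1 (-3.26 ± 0.24) and Tbx21 were among the lower. The aryl hydrocarbon receptor is a ligand-activated factor on which DETCs depend. Of its 3 tested targets, Ahrr (4.97 ± 0.37), its repressor, and Tiparp (2.37 ± 0.08) were higher, while Cyp1b1 was not called (-0.20 ± 0.50). Hk2, which encodes hexokinase 2, had a log2 fold change of 5.43 ± 0.18 and was at 906 to 1084 CPM in the group and 11.5 to 34.5 CPM in other T cells. With the lipid desaturase gene Scd2 it made up the 2 higher of 13 metabolic genes tested, and 3 were lower. Trf, the gene for the iron carrier transferrin, was singled out after its values were seen: it was at 1057 to 1159 CPM in the group and 35.4 to 49.7 CPM in other T cells (4.74 ± 0.11). The list of the guanylate cyclase C and GABA pathways holds 13 genes with Gucy2c and Slc32a1 among them, and no other passed the filter on low counts.

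Imprinted genes outside the selection were higher in 8 of 12 tested and lower in none, beside the background of 13.4% and 10.9%, with a list median of 1.48. They were Snrpn (4.29 ± 0.36), Plagl1 (3.38 ± 0.17), Zrsr1 (2.09 ± 0.25), Impact (2.04 ± 0.08), Kcnq1ot1 (1.96 ± 0.07), Meg3 (1.49 ± 0.16), Grb10 (1.48 ± 0.32) and Gnas (1.04 ± 0.06). Plagl1, a zinc finger factor of a network of imprinted growth genes, was at 314 and 286 CPM in the group's cells of the Smo+/- libraries and 370 and 419 CPM in those of the control libraries, against 23.3 to 37.2 CPM in other T cells. Some of these are expressed from the maternal and some from the paternal allele, and allele use was not measured. Peg3 (0.98 ± 0.39), Sgce (0.28 ± 0.32), Igf2r (0.27 ± 0.12) and Cdkn1c (-0.37 ± 0.20) were not called. The list was looked at with Mest and Nap1l5 already known as leading genes. Both also helped to choose the cells, as members could qualify by their UMIs and other T cells had 0. The count is therefore no independent support for imprinted genes as a set.

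Cell cycle genes were lower in 11 of 13 tested, among them Mki67 (-3.61 ± 0.24) and Top2a (-2.99 ± 0.17), and none was higher. Mki67 UMIs were found in 0.849% to 2.27% of the group's cells and 5.04% to 9.39% of other T cells. Interferon-induced genes were lower in 5 of 11 tested, including Ifi27l2a (-4.66 ± 0.33), and higher in 2, Oasl2 (4.05 ± 0.33) and Bst2 (1.74 ± 0.10). Of 18 immediate early and heat shock genes, 7 were higher, led by Fos (2.40 ± 0.10) and Junb (1.84 ± 0.07), and Btg2 was lower. Such genes respond to tissue dissociation, and its part in the difference was not tested.

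**Figure D3:**
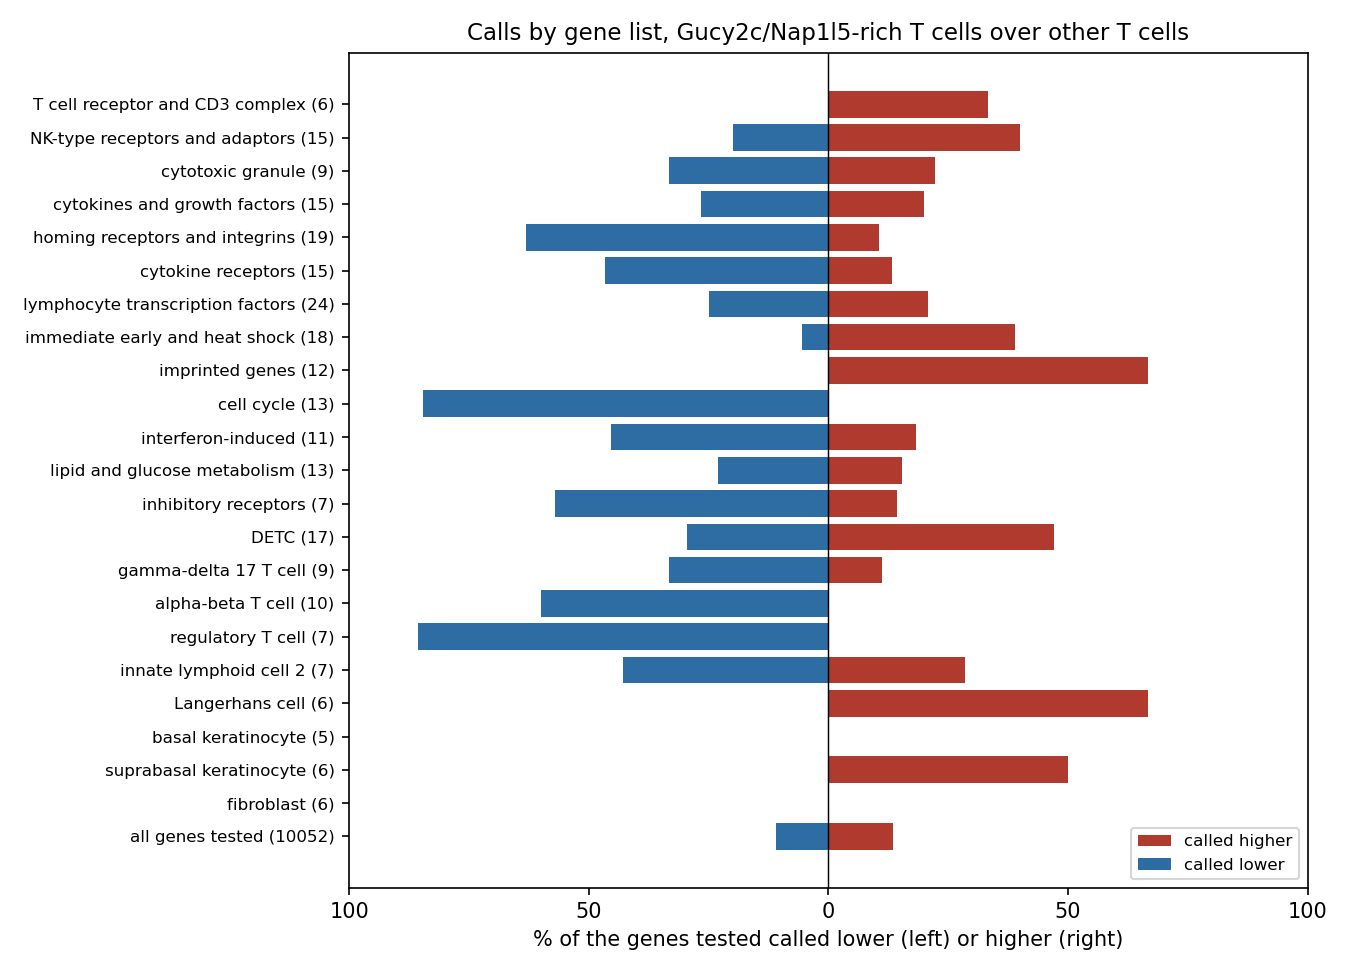
Percent of the tested genes of each list called lower (blue, left) and higher (red, right) in Gucy2c/Nap1l5-rich T cells over other T cells, for lists with at least 5 genes tested; the number tested is in parentheses and the bottom row is the background of all 10052 genes. Imprinted, Langerhans, suprabasal keratinocyte, T cell receptor and immediate early lists lean to higher calls, and cell cycle, αβ, regulatory T cell and homing lists to lower calls. The DETC list, with 8 higher and 5 lower of 17, and the natural killer type list, with 6 and 3 of 15, exceed the background in both directions.

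Lists for other lymphocytes went in different directions. The αβ list gave 6 lower of 10 tested, including Icos (-3.22 ± 0.06), at 134 to 173 CPM in the group against 1411 to 1519 CPM in other T cells, and Satb1 (-2.74 ± 0.08). The regulatory T cell list gave 6 lower of 7, with Foxp3 at -4.78 ± 0.39. Of 9 genes tested for interleukin 17 producing γδ T cells, Il7r, Ccr2 and 5830411N06Rik were lower and Cd163l1, a scavenger receptor gene, was higher (2.95 ± 0.18). Cd163l1 was uneven between genotypes, at 173 and 187 CPM in the group's cells of the Smo+/- libraries and 110 and 115 CPM in those of the control libraries. Of 7 genes tested for group 2 innate lymphoid cells, Areg and Il13 were higher and Il5, Calca and Il1rl1 lower, and the summed level of that list, which includes Areg, was 2012 to 2354 CPM in the group and 426 to 590 CPM in other T cells. The natural killer list had 2 genes tested, Prf1 higher and Gzmb lower, and its gene Klra8 was at 0 UMIs.

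UMIs of skin cell markers were found in many members, and most of them lay in few cells. The Langerhans list, whose summed level was 823 to 3007 CPM in the group and 275 to 1295 CPM in other T cells, had 4 of 6 genes called higher, with Cd207 at 1.59 ± 0.40. Cd207, the gene for langerin, was uneven, at 201 and 802 CPM in the group's cells of the Smo+/- libraries and 103 and 122 CPM in those of the control libraries. The suprabasal keratinocyte list, at 807 to 3651 CPM in the group and 351 to 1521 CPM in other T cells, had 3 of 6, with Krt10 at 2.02 ± 0.51. Kit was higher in the mast cell list of 2 tested (1.70 ± 0.25). None of the 6 fibroblast genes, 5 basal and 3 follicle keratinocyte genes, 2 macrophage genes and 1 endothelial gene tested was called, and no melanocyte or B cell gene passed the filter on low counts. The 5% of members with the most Krt10 UMIs held 74.5% to 95.7% of all Krt10 UMIs of the group in each library, and the same share was 81.1% to 96.8% for Cd207 and 91.7% to 95.5% for Col1a1. For Fcer1g it was 14.9% to 18.1%. At least 1 UMI was found in 35.03% and 28.2% of members of the Smo+/- libraries and 25.4% and 26.2% of those of the control libraries for Krt10, and in 19.3% and 20.1% of members of the Smo+/- libraries and 15.5% and 12.9% of those of the control libraries for Cd207. For Col1a1 the shares were 37.8% and 39.0% in the Smo+/- libraries and 20.4% and 22.2% in the control libraries, and for Dcn 55.4% and 51.7% in the Smo+/- libraries and 26.6% and 26.5% in the control libraries. Scrublet called 3.52% to 4.67% of members doublets, against 1.46% to 2.13% of all kept cells. With called doublets removed, 2479 genes were called and 8 DETC genes stood higher, as in the full set.

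Levels also varied among members. Per 10000 UMIs, Areg had a 10th percentile of 0, a median of 4.57 and a 90th percentile of 64.1 over the 2695 cells, with 31.9% of cells at 0 UMIs. Xcl1 had a median of 1.10 and a 90th percentile of 18.2, with 48.7% of cells at 0. Fcer1g and Il2rb were more even, with medians of 8.54 and 8.85 and 10th and 90th percentiles of 2.06 and 19.9 for Fcer1g and 2.22 and 17.8 for Il2rb. Cd163l1 was found in the smaller part of the group, at 0 UMIs in 73.6% of cells. At 5231 and 4985 median UMIs in the Smo+/- libraries and 4475 and 4659 in the control libraries, 1 UMI in a cell of median depth is more than the median level of Xcl1, so a 0 does not show that a cell lacked the transcript.

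**Figure D4:**
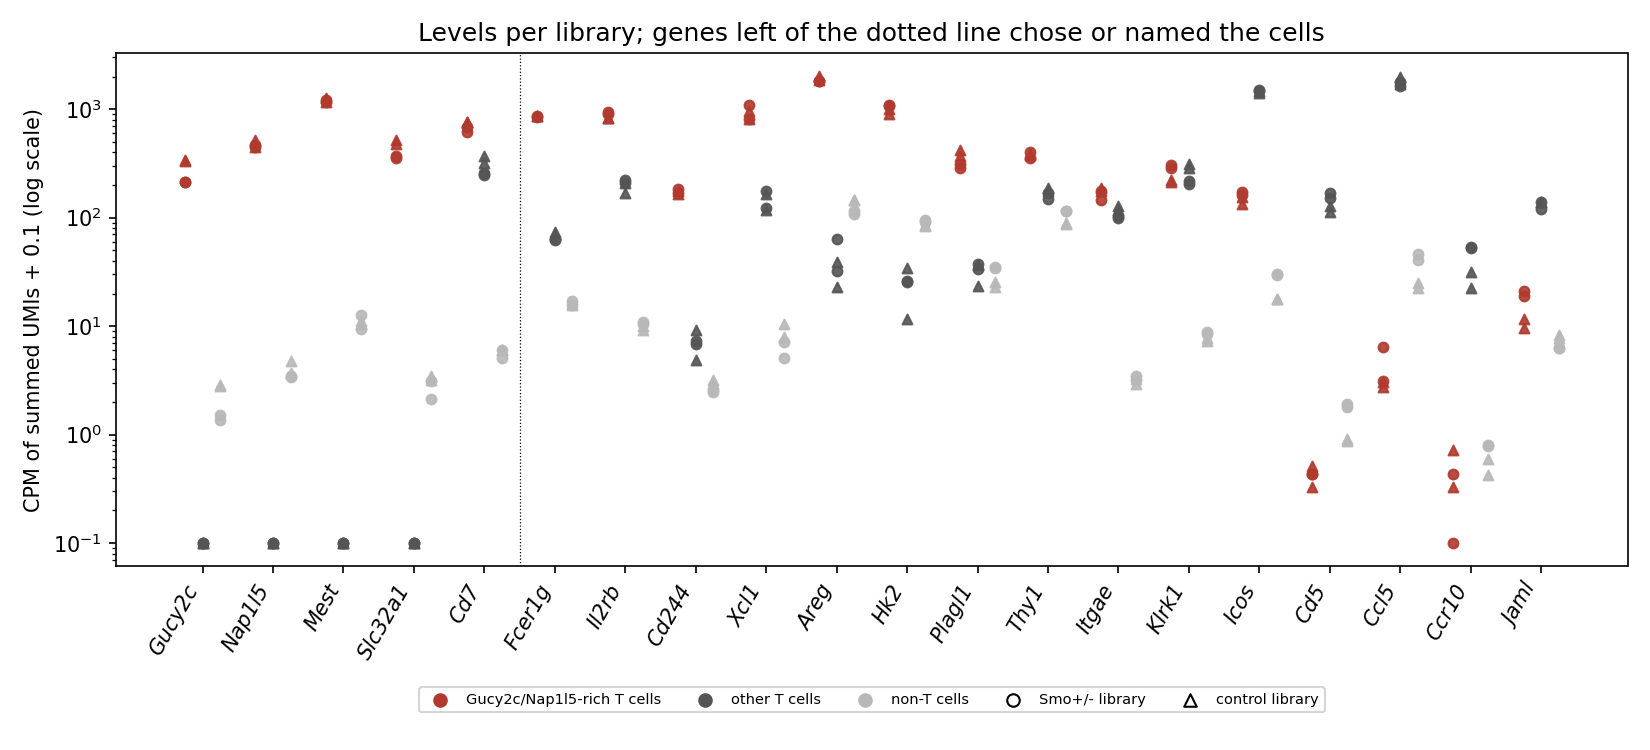
CPM (y axis, log scale, with 0.1 added) of 20 genes in Gucy2c/Nap1l5-rich T cells (red), other T cells (dark grey) and non-T cells (light grey); circles are Smo+/- libraries and triangles control libraries, and genes left of the dotted line selected or marked the cells. Fcer1g, Cd244, Areg and Hk2 stand clear of other T cells in all 4 libraries, Klrk1 overlaps, and Ccl5, Cd5 and Ccr10 are near 0 in the group.

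In the edgeR fit between Smo+/- and control libraries on the 4 sums of the group, 66 of 10803 genes were called higher in Smo+/- (0.611%) and 36 lower (0.333%), and 1866 had an unadjusted p under 0.05. None of the 15 DETC genes tested was called, which at such shares tells nothing particular about that list. Of the 15, Klrk1 passed the adjusted p in that fit (0.0368). Its libraries did not overlap, and neither did those of Fcer1g, Il2rb and other DETC genes that did not pass. The share of all genes without overlap is not given here. Klrk1 was higher in Smo+/-, but its log2 fold change of 0.41 ± 0.07 was under the limit of 1. These 102 calls depended on the cells and libraries used: 52 genes were called with doublets removed, 7 with at most 5% mitochondrial UMIs, 368 without Smo+/- replicate 1 and 215 without Smo+/- replicate 2. With doublets removed, 24 genes were higher and 28 lower, so most of the lost calls were higher ones. The 5% limit left 138 and 126 members in the Smo+/- libraries and 324 and 325 in the control libraries. The 4 sums of the full set held 2986133 and 2996070 UMIs in the Smo+/- libraries and 4413799 and 4859087 UMIs in the control libraries. Calls within lists were 5 higher among 6 fibroblast genes, 1 higher each among cytokines (Igf1) and imprinted genes (Meg3), 2 lower each among mast cell and heat shock genes, and 1 lower among suprabasal genes (Krt1). No gene was called in the other lists.

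The lower genes included some that these T cells express far above other skin cells. Asph, which encodes an aspartate β-hydroxylase, was at 176 and 165 CPM in the Smo+/- libraries, against 495 and 544 CPM in the control libraries, with a log2 fold change of -1.65 ± 0.08 (edgeR adjusted p = 0.000337). In non-T cells Asph was at 19.1 and 18.7 CPM in the Smo+/- libraries and 20.6 and 19.5 CPM in the control libraries. Pik3cd, the leukocyte form of phosphoinositide 3-kinase, was at 64.6 and 67.8 CPM in the Smo+/- libraries, against 201 and 207 CPM in the control libraries (-1.66 ± 0.08), and other T cells had 31.5 and 44.5 CPM in the Smo+/- libraries and 50.7 and 60.9 CPM in the control libraries. Ssna1, a centriole-associated protein, was at 156 and 177 CPM in the Smo+/- libraries, against 345 and 306 CPM in the control libraries (edgeR adjusted p = 0.00563). The groups did not overlap for these 3 genes or for any other called gene, so this does not set them apart. The heat shock gene Hspa1b also fell, to 1614 and 1404 CPM in the Smo+/- libraries, against 3180 and 3501 CPM in the control libraries (-1.18 ± 0.07). Unlike the others it was not far above other skin cells. In non-T cells Hspa1b averaged 2573 CPM in the Smo+/- libraries and 2861 CPM in the control libraries. These 4 were singled out after their values were seen, for their level in the group.

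Higher genes of the same kind were fewer. Trappc1, a subunit of a vesicle tethering complex, was at 74.7 and 94.5 CPM in the Smo+/- libraries, against 33.1 and 24.5 CPM in the control libraries (1.52 ± 0.18), and Ehd3, a membrane traffic protein, at 79.0 and 77.8 CPM in the Smo+/- libraries, against 24.02 and 17.7 CPM in the control libraries (1.88 ± 0.15). Both were also singled out afterwards. Whether these effects differ from those in other T cells was tested with a class by genotype term. Its edgeR adjusted p was 0.422 for Asph, 0.106 for Pik3cd, 0.261 for Hspa1b, 0.0617 for Ssna1, 0.0745 for Trappc1 and 0.449 for Ehd3, so no difference between the classes was shown for them.

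By fold change, the 15 genes highest in Smo+/- were YFP, Rbp4, Prss22, Ccl8, Klrb1a, Rab6b, Hpgd, Dpep1, Wif1, Tril, Col14a1, Itih5, Prss12, Kdm6bos and Gpc3. YFP, listed as a reporter feature, had 31 UMIs in the Smo+/- libraries and 0 in the control libraries, so it was at least 16.0-fold higher with 3 UMIs over the control libraries as the floor. In non-T cells YFP was at 9.20 and 9.30 CPM in the Smo+/- libraries and 0 in the control libraries. The labels name no YFP reporter in either genotype, and the source of these UMIs was not tested. Prss22, a serine protease, was at 49.6 and 36.4 CPM in the Smo+/- libraries, against 2.27 and 2.06 CPM in the control libraries (4.26 ± 0.26). Klrb1a, a natural killer receptor gene, rested on 25 UMIs against 3, a ratio of 12.9 with an exact 95% counting interval of 3.94 to 66.8. Wif1, a Wnt inhibitor, was at 61.3 and 63.4 CPM in the Smo+/- libraries, against 6.12 and 12.96 CPM in the control libraries (2.65 ± 0.27).

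Many of the higher genes belong to fibroblasts, such as Col1a1, Dcn, Lum and Pdgfra. All 66 were also higher in non-T cells of the Smo+/- libraries, and for 53 the larger of the Smo+/- and control means in the group was below the larger one in non-T cells, with a median ratio of 0.59 over the 66. Fibroblast markers moved with genotype in the group: 5 of 6 were called higher, and their summed level was 4476 and 4421 CPM in the Smo+/- libraries, against 2339 and 1668 CPM in the control libraries. In non-T cells the sum was 7154 and 7704 CPM in the Smo+/- libraries, against 3682 and 3672 CPM in the control libraries. The part of other cells' RNA in these calls was not tested. Of the 36 lower genes, 23 were also lower in non-T cells of the Smo+/- libraries, and 29 had a level in the group at or above that in non-T cells. Both counts of direction, 66 and 23, took the sign alone, however small the difference. With 1 CPM added, the log2 ratio in non-T cells was -0.0008 for Trim2 and 0.0842 for Trappc1. The share of all tested genes with the same sign is not given here, so these counts show no shared shift.

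**Figure D5:**
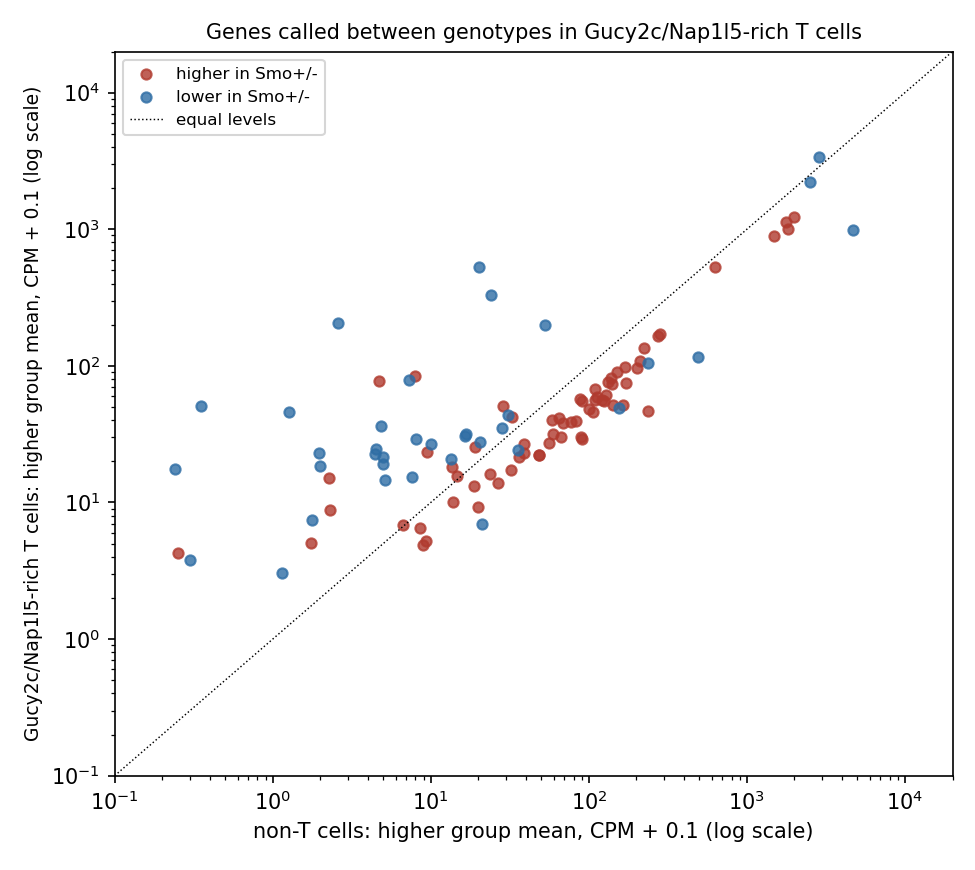
Each gene called between genotypes in Gucy2c/Nap1l5-rich T cells, by its level in these cells (y axis) and in non-T cells (x axis), each as the larger of the Smo+/- and control means in CPM with 0.1 added, on log scales; red genes were higher and blue genes lower in Smo+/-. Of 66 higher genes 53 lie below the line of equal levels, and of 36 lower genes 29 lie on or above it.

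The 10 genes lowest in Smo+/- by fold change were Hist1h2al, Fam101a, Gt(ROSA)26Sor, Hist2h2bb (the identifier ENSMUSG00000050936), Cpa3, Car6, Mcpt4, Prph, Hdc and Notum. Hist1h2al, annotated as a processed pseudogene on chromosome 13 whose reads may be shared with histone genes, had 0 UMIs in the Smo+/- libraries and 281 in the control libraries, at least 60.4-fold lower with 3 UMIs over the Smo+/- libraries as the floor. In non-T cells it was at 0.101 and 0.060 CPM in the Smo+/- libraries and 15.6 and 17.3 CPM in the control libraries. Gt(ROSA)26Sor, a transcript of the Rosa26 locus that holds the reporter, was at 1.34 and 1.00 CPM in the Smo+/- libraries, against 42.6 and 43.8 CPM in the control libraries (-5.20 ± 0.23), and in non-T cells at 1.72 and 1.75 CPM against 31.6 and 29.7 CPM. Cpa3, Mcpt4 and Hdc are mast cell genes. In the group Mcpt4 gave 12 and 9 UMIs in the Smo+/- libraries, spread over 12 and 9 cells. The control libraries had 122 and 199 UMIs in only 7 and 9 cells. Means in non-T cells of the Smo+/- libraries were 28.1 CPM for Mcpt4, 13.4 CPM for Cpa3 and 7.35 CPM for Hdc. Those of the control libraries were 18.9, 9.93 and 7.51 CPM, so Mcpt4 and Cpa3 went the other way there. These mast cell genes count among the lower genes whose level in the group was at or above that in non-T cells.

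Of the reporter features, YFP is given above, and eGFP and tomato were close between genotypes in the group. In the Gucy2c/Nap1l5-rich cells eGFP was at 74.3 and 72.8 CPM in the Smo+/- libraries and 72.0 and 75.5 CPM in the control libraries, while tomato was at 696 and 640 CPM in the Smo+/- libraries and 673 and 656 CPM in the control libraries. In non-T cells eGFP was at 166 and 163 CPM in the Smo+/- libraries and 76.7 and 77.8 CPM in the control libraries. Lepr, the gene whose locus drives the recombinase, was at 17.7 and 17.02 CPM in the group's cells of the Smo+/- libraries, against 7.70 and 7.20 CPM in those of the control libraries, and at 35.1 and 29.2 CPM against 11.5 and 10.2 CPM in non-T cells.

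The class by genotype term passed an adjusted p of 0.05 for 14 of 10959 genes (0.128%), given with their values in the closing section. With called doublets removed 0 passed in the edgeR fit, where 953 had an unadjusted p under 0.05, and 30 to 391 passed when single libraries were left out; DESeq2 on all cells called 17. Of these, Col1a1, Ctsk, Bgn, Serping1, Sparc and Igfbp5 are expressed by fibroblasts, and Krt1 and Ly6d by keratinocytes. Ctla2a, a protease inhibitor gene of activated T cells, was the most abundant, at 4031 and 4408 CPM in the group's cells of the Smo+/- libraries and 5467 and 5665 CPM in those of the control libraries, on the scale of the edgeR fit. In other T cells Ctla2a was at 1261 and 1346 CPM in the Smo+/- libraries and 1256 and 1360 CPM in the control libraries. The difference of the genotype effects was -0.40 ± 0.05.

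The 4 libraries were of similar depth. They held 10748 to 11816 barcodes and 147245343 to 171197845 UMIs, and kept cells shared 24 to 46 barcodes between any pair of libraries, at most 0.548% of the smaller. Replicates were not copies of each other: a chi-square test of their counts gave 4.37 per degree of freedom between the Smo+/- libraries and 2.43 between the control libraries.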

How the data were processed

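The deposited values are UMI counts for each gene in each cell barcode, not normalized. Per the submitters' processing notes, the builds were GRCm38 and mm10, and the tools Scanpy 1.6.0, Seurat 3.2.2 and Cell Ranger 2.1.1 and 3.1.0. Per the labels' protocols, unsorted cells were captured with 10x Genomics 3′ chemistry version 3 and sorted cells with version 2. Barcodes with 500 to 8000 genes (sorted library, from 300) and at most 10% mitochondrial UMIs were kept. Members, comparison cells and gene lists were chosen with earlier results of these data known. UMIs were summed per library and class and tested with edgeR 4.0.16 (TMM, filterByExpr, quasi-likelihood; Benjamini-Hochberg), with genotype alone or with the library as a block; the fit was tested on simulated data. The 13 selecting genes entered no calls, and Cd7 none between classes. Plain CPM are per class sum, and floors are 3 UMIs; intervals are exact 95% and cover counting error only. Genes named first were the 15 highest and 10 lowest by fold change, between classes with at least 50 CPM and 1 direction in 4 libraries, and between genotypes with groups that did not overlap. Doublets were scored with scrublet in scanpy 1.11.5 and kept; in 1 control library the automatic threshold called 0 cells, so the median threshold of the others was used. Promoters came from RefSeq (GRCm38.p6), and coordinates from GENCODE M21, where all 111 genes looked up matched by identifier. Alternatives were DESeq2 1.42.0, no count filter, selection at 1 or 3 UMIs, 5% mitochondrial UMIs, doublets removed, thinning to 2000 UMIs, another comparison class, leaving out libraries and a replicate block.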

Additional observations from a re-analysis of the deposited data

Results flagged for a closer look

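In 14 genes the Smo+/- effect on the Gucy2c/Nap1l5-rich T cells differed from that on other T cells by the class by genotype term of the edgeR fit, at adjusted p-values of 0.0163 to 0.0364. A positive difference means a more positive Smo+/- effect in the Gucy2c/Nap1l5-rich cells. The difference on the log2 scale was positive for Ctsk (2.43), Serping1 (1.69), Igfbp5 (1.67), Sparc (1.66), Bgn (1.27) and Col1a1 (0.99), genes of fibroblasts. It was negative for Fabp4 (-5.78), Il33 (-3.44), Krt1 (-2.80), Ccl20 (-2.71), Tm4sf1 (-2.18), Epgn (-1.34), Ly6d (-1.06) and Ctla2a (-0.40). Ccl20 was at 44.0 and 37.4 CPM in the group's cells of the Smo+/- libraries, against 166 and 81.1 CPM in those of the control libraries. In other T cells Ccl20 was at 129 and 79.9 CPM in the Smo+/- libraries, against 54.8 and 37.8 CPM in the control libraries. With called doublets removed, 0 genes passed in the edgeR fit, 953 had an unadjusted p under 0.05, and DESeq2 called 17 with the doublets kept.

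The sorted GFP-positive library, which entered no comparison, held 15 Cd3-positive cells of 432, and its gene list includes T cell receptor genes. The only cell that met the selection, with 3585 UMIs, had 11 UMIs of Trdc and 4 of Tcrg-C1, the constant regions of the δ chain and a γ chain, and 0 UMIs of Trac, Trbc1 and Trbc2. It also had 17 UMIs of Cd3e, 3 of Cd7 and 3 of Fcer1g. Trdc was found in 2 of the 15 cells; the other had 50 UMIs of it, 40 of Cd7 and 19 of Fcer1g, with 0 UMIs of the 4 selecting genes, and also 5 UMIs of αβ receptor genes. Both cells with Trdc had 0 UMIs of Tcrg-V5 and Trdv4, the variable segments in the DETC list. Of the 15 cells, 9 had no UMI of Trdc, Trac, Trbc1 or Trbc2. A single cell has no replicate check.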

How the results depend on the processing

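The lower share in Smo+/- skin kept its direction under every alternative run, between -4.79 and -3.72 points of kept cells and -29.5 and -15.5 points of Cd3-positive cells, the last pair at 5% mitochondrial UMIs and after thinning; leaving out a library gave -4.81 to -4.26 and -20.3 to -17.9. Calls between Smo+/- and control numbered 102, with 52 after doublets were removed, 7 at 5% mitochondrial UMIs and 70 to 368 without single libraries, 368 without Smo+/- replicate 1 and 215 without Smo+/- replicate 2. The 7 were also in the 102, and no sign of the 102 turned. The replicate block gave 217 calls, all 102 among them; equal numbers share only a number (correlation of deviations 0.108 over 2 pairs). Calls against other T cells numbered 2442, with 2384 to 2661 without single libraries and 1473 against all other Cd3-positive cells, where 5 DETC genes in place of 8 were higher. Leaving out libraries kept all 8. Klrk1 turned to -0.144 at 5% mitochondrial UMIs, -0.019 after thinning and -0.138 and -0.08 without Smo+/- replicates 1 and 2, in a range of -0.138 to 0.245 without single libraries. Klrd1 turned to -0.082 at 5% and -0.02 and -0.098 without the same replicates, in a range of -0.098 to 0.346, and stood at 0.474 after thinning (edgeR adjusted p = 0.00712) against 0.112 with all UMIs. Neither reached the fold limit. The class by genotype calls moved most: 14, with 441 unfiltered, 25 at selection from 1 UMI, 0 without doublets (953 at an unadjusted p under 0.05; DESeq2 on the full set 17), 2 at 5% and 30 to 391 without single libraries. The causes were not tested. Of the 25 genes named between classes and the DETC list, Xcl1, Ahr and Thy1 lost their call against all other Cd3-positive cells, at 0.962, 0.830 and 0.686. Depth limits genes under about 1 CPM, where 3 UMIs set the floor.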
